A study of Macaca mulatta with 24 samples.

Results

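The aryl hydrocarbon receptor and 6 genes that it is known to control or to be controlled by were followed in airway epithelial cells of rhesus macaques (Macaca mulatta) exposed to wood smoke. The 7 genes were AHR, AHRR, CYP1B1, CYP1A1, TIPARP, ALDH3A1 and CYP2S1, chosen by symbol as a pathway out of 35432 genes in the table. Earlier results of these data were known at that choice, so counts of members called are no blind comparison with all genes. The table gave a symbol for 5 of them, and AHR and AHRR, which it lists by identifier alone, took theirs from a reference table of gene names. Of the 7, 6 passed a filter on low values (at least 10 normalized counts in at least 4 libraries) that left 14062 genes, and CYP1A1 did not.

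Primary epithelial cells of the trachea and bronchi came from 4 adult females (S1 to S4) and were differentiated on inserts at an air–liquid interface in a medium with retinoic acid. Smoke cultures received diluted whole wood smoke and air cultures received filtered air, for 6 hours on each exposure day. There were 6 groups, which were smoke and air after 1 day, smoke and air after 5 days, and smoke and air after 5 days of exposure and 7 days of recovery, with 1 RNA sequencing library of each animal in each group, 24 in all. The animals S1, S2, S3 and S4 had ages of 5463, 2930, 2238 and 1128 days and weights of 5.59, 7.17, 4.56 and 3.18 kg, so an effect of age cannot be told apart from one of the animal. The model holds epithelium alone, and each value is that of a mixed culture.

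AHR is a transcription factor that waits in the cytoplasm, bound to a chaperone complex, until it meets a ligand. Polycyclic aromatic hydrocarbons, which form when wood, tobacco or fuel burns, are among its ligands, and with ligand it moves to the nucleus, pairs with ARNT and switches on genes for enzymes that metabolize such compounds. AHRR and TIPARP are targets whose products damp the receptor in turn, and in airway epithelium CYP1A1 and CYP1B1 are known as markers of exposure to smoke. The roles given here and below are those known from human and mouse.

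Values are normalized counts, the signal per gene and library as deposited, and their sums ran from 11.8 to 15.2 M per library. Approximate depths were 9.46 to 17.4 M reads, and 12927 to 13255 genes per library reached 10. At 5 days the smoke libraries were the deeper, at 14.4 ± 1.30 M reads against 11.8 ± 1.56 M in air (SD, n = 4 each). At 1 day the air libraries were the deeper, at 15.0 ± 1.83 M reads against 12.4 ± 2.04 M in smoke. 1 library was unlike the rest, that of S1 in air at 5 days (hereafter the odd S1 library), whose median correlation to the other libraries was 0.860 while those of the other 23 lay at 0.931 to 0.956. Epithelial markers were present in every library, with basal sums of 21102 to 70742 and ciliated sums of 3323 to 24742. The fibroblast genes PDGFRB and DCN, the leukocyte genes PTPRC and CD3E and the endothelial gene CDH5 stayed under 10 in every library. Other genes of the same lists did not, with the fibroblast genes COL1A1 and COL1A2 at up to 33.9 and 21.7. Of the leukocyte list, LYZ had 1471 to 4679 and CD68 194 to 932. Of the endothelial list, VWF had 50.9 to 121 and PECAM1 11.8 to 180. The 5 secretory markers measured summed to 48310 to 164774 in S1 and to 133 to 811 in S2. Basal sums were lower in smoke cultures after recovery, at 21102 to 39793, than in air cultures, at 55506 to 65826.

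CYP1B1 was higher in smoke than in air cultures by 7.08-fold after 1 day and by 6.27-fold after 5 days, and no difference was detected a week after exposure. From 5 days to recovery its level rose in air cultures (log2 3.19), and no fall was detected in smoke cultures (log2 0.62). CYP1A1 was higher at the same times from very few reads. None of the other 5 genes tested passed between smoke and air in the fit of all libraries without a block, and with animal as a block CYP2S1 was lower in smoke after recovery (log2 −0.89). The test was limma on log2(value + 1) of all 14062 genes with a common spread over the 6 groups, two-sided, called at a Benjamini-Hochberg adjusted p under 0.05. Libraries of the same animal varied together, so the fit with animal as a block is given wherever it changes a call. The plot of levels in every library shows the 7 genes side by side.

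**Figure D1:**
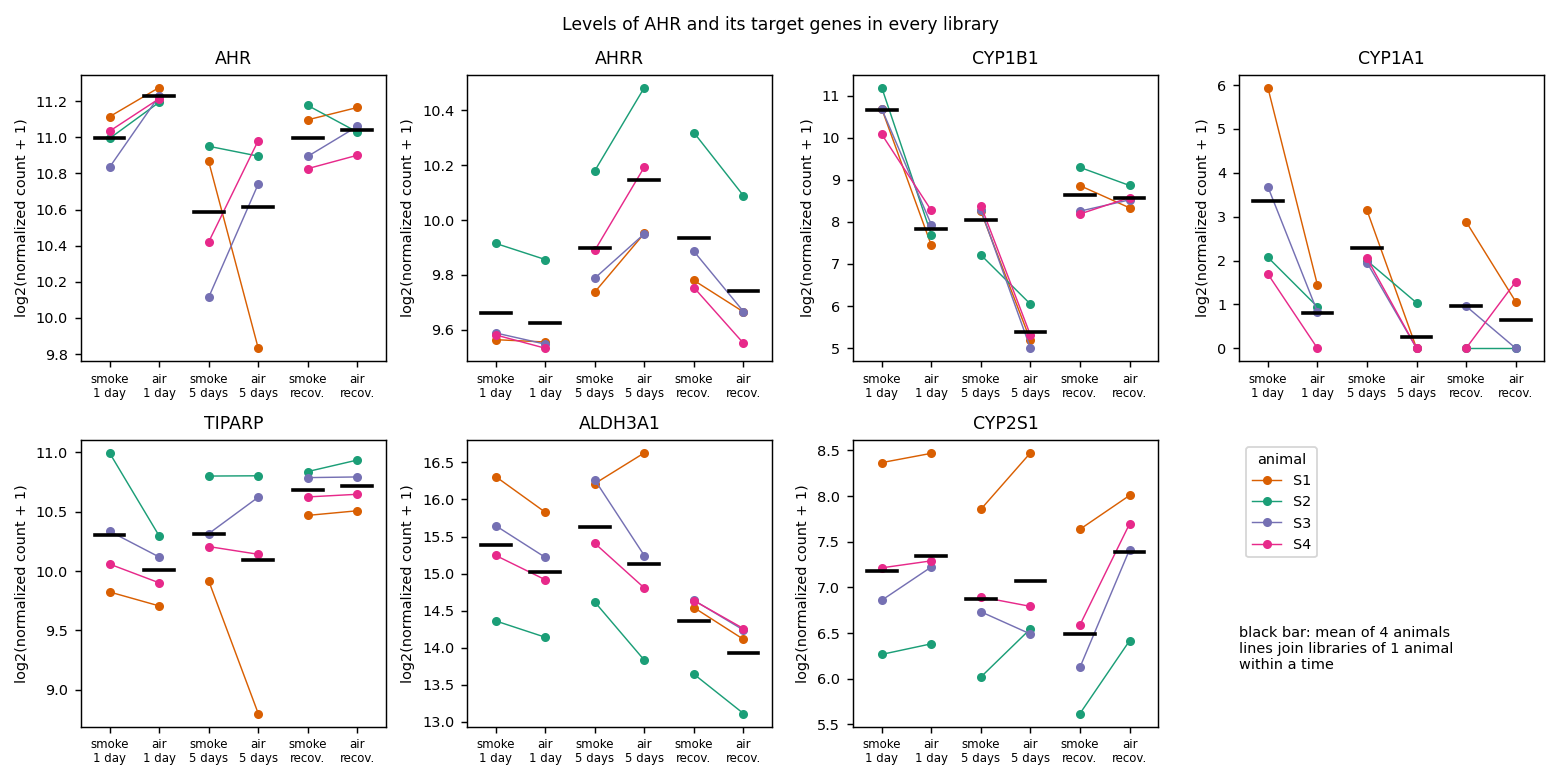
Each panel gives 1 gene, with log2(normalized count + 1) in smoke and air cultures at 1 day, 5 days and recovery; points are libraries coloured by animal, lines join the libraries of an animal within a time, and black bars are means of the log2 values of 4 animals. CYP1B1 lay higher in smoke than in air for all 4 animals at 1 day and 5 days, while ALDH3A1, CYP2S1, TIPARP and AHRR kept much of the order of the animals across groups.

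After 1 day, 1 of the 6 members tested was called higher in smoke, against 0.0284% of all genes tested in either direction. After 5 days 1 of 6 was called, against 0.0711%. After recovery 0 of 6 were called by limma without a block, 0 at an unadjusted p under 0.05, against 0.242% of all genes called. With animal as a block the counts were 1, 1 and 1 of 6, against 0.0782%, 1.69% and 3.41%. The median log2 fold change of the 6 was 0.17 at 1 day, 0.10 at 5 days and 0.02 at recovery, and that of all genes tested was 0.00, 0.01 and 0.01.

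**Figure D2:**
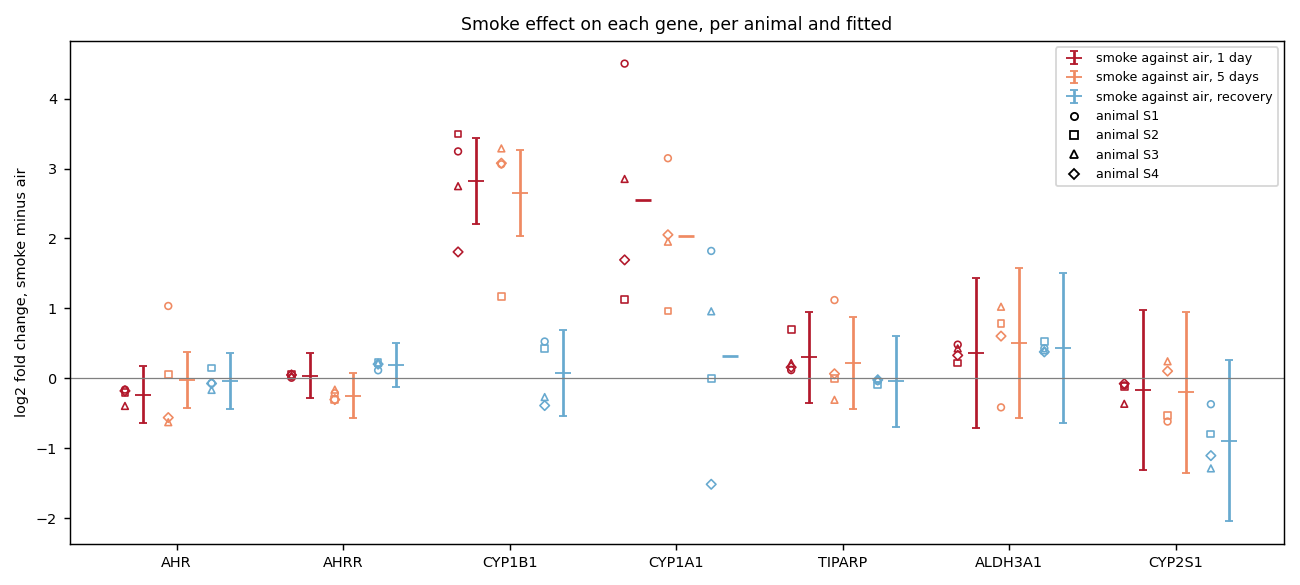
For each gene and time, open symbols give the log2 fold change of smoke over air in each animal, and bars give the limma estimate with its 95% confidence interval from the fit without a block (CYP1A1, not in that fit, has the mean alone). The intervals of CYP1B1 at 1 day and 5 days lie above 0; the points of ALDH3A1 at 1 day and at recovery lie close together above 0 inside wide intervals.

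AHR (ENSMMUG00000012203), the receptor itself, was at slightly lower levels in smoke than in air after 1 day in every animal, and did not pass the test. In smoke cultures it had 2216, 2038, 1824 and 2096 normalized counts in S1 to S4, against 2478, 2341, 2399 and 2374 in air cultures. The groups did not overlap, which at this time held in either direction for 4.1% of all genes tested. The log2 fold change was −0.23 ± 0.19 (SE, adjusted p = 1.00 by limma). In a limma fit of these 8 libraries alone with animal as a block, the same difference passed (adjusted p = 0.00513), as did 9.11% of all genes tested. In bulk RNA, fewer cells of a type and less RNA per cell cannot be told apart, for this gene and those that follow.

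After 5 days AHR had 1866, 1978, 1107 and 1369 normalized counts in smoke cultures, against 910, 1904, 1711 and 2021 in air cultures. The groups overlapped, with smoke higher in S1 and S2 and lower in S3 and S4, and the lowest value of all 24 was that of the odd S1 library. After recovery AHR had 2189, 2313, 1903 and 1815 in smoke cultures, against 2295, 2089, 2134 and 1911 in air cultures, again overlapping (log2 −0.04, 95% confidence interval −0.44 to 0.36). By mean the groups ran from air at 1 day (2398 ± 58.1) down through air at recovery (2107), smoke at recovery (2055), smoke at 1 day (2043) and air at 5 days (1637) to smoke at 5 days (1580). Only the step below air at 1 day separated neighbours whose ranges did not overlap.

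AHRR (ENSMMUG00000000752), the repressor that competes with AHR for ARNT, is often induced by AHR ligands, and no such difference was detected here after 1 day. It had 756, 964, 769 and 765 normalized counts in smoke cultures, against 752, 926, 748 and 740 in air cultures. Every animal was higher in smoke, by 1.01-fold to 1.04-fold, and the groups overlapped (log2 0.04 ± 0.15, SE, adjusted p = 1.00 by limma). Of all genes tested, 16.2% were higher in 4 of 4 animals at this time. The 95% confidence interval, −0.28 to 0.36 without a block and −0.11 to 0.19 with it, bounds the difference.

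At 5 days AHRR was lower in smoke in 4 of 4 animals, as were 9.91% of all genes tested. At recovery it was higher in 4 of 4, as were 18.9%. Smoke cultures had 853, 1159, 883 and 947 normalized counts after 5 days, against 989, 1430, 988 and 1170 in air cultures (log2 −0.25, adjusted p = 0.637, and 0.0823 with animal as a block). Smoke cultures had 878, 1276, 945 and 863 after recovery, against 811, 1088, 812 and 749 in air cultures (log2 0.19, adjusted p = 0.853, and 0.163 with the block). Groups overlapped at both times because S2 was highest throughout. With the odd S1 library left out and animal as a block, both differences passed by limma (adjusted p = 0.0169 and 0.0293), as did 6.26% and 18.8% of all genes tested. The change of the smoke effect from 5 days to recovery was 0.44 ± 0.22 on the log2 scale (SE, adjusted p = 0.450), and it passed with the block (adjusted p = 0.0232). That call was lost in the fit of the 16 libraries concerned with the block (adjusted p = 0.134, 0.519% of all genes called).

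CYP1B1 (ENSMMUG00000013945) encodes a cytochrome P450 that oxidizes polycyclic aromatic hydrocarbons and steroid hormones. After 1 day it had 1649, 2335, 1643 and 1081 normalized counts in smoke cultures of S1 to S4, against 173, 206, 244 and 308 in air cultures. The lowest smoke value was above 3 times the highest air value, and the groups did not overlap. The means were 1677 ± 513 in smoke and 233 ± 57.9 in air (SD, n = 4 each), a 7.08-fold difference (log2 2.82 ± 0.30, SE, adjusted p = 6.11e-05 by limma). It was the largest log2 fold change in the higher direction among the 14062 genes tested. The animals ranged from 3.50-fold in S4, the youngest, with the highest air level and the lowest smoke level, to 11.3-fold in S2.

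After 5 days CYP1B1 had 303, 148, 311 and 334 normalized counts in smoke cultures, against 35.5, 65.1, 31.0 and 38.7 in air cultures. The groups again did not overlap, which at this time held for 3.46% of all genes tested in either direction, and S2 was both the lowest in smoke and the highest in air. The difference was 6.27-fold (log2 2.65 ± 0.30, SE, adjusted p = 9.14e-05 by limma), with 2.25-fold in S2 and up to 9.76-fold in S3. It was the third highest change among all genes tested. The call at 5 days was lost in fits of those 8 libraries alone (adjusted p = 0.186 without and 0.804 with animal as a block; limma called 0 genes in the fit with the block, with 822 at an unadjusted p under 0.05).

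After recovery CYP1B1 had 464, 627, 305 and 291 normalized counts in smoke cultures, against 322, 465, 367 and 381 in air cultures. The groups overlapped, with smoke higher in S1 and S2 and lower in S3 and S4. The log2 fold change was 0.07, with a 95% confidence interval of −0.54 to 0.69 (adjusted p = 0.991 by limma). The change of the smoke effect itself was also tested. At recovery minus 5 days it was −2.57 ± 0.42 on the log2 scale (SE, adjusted p = 0.00599 by limma), and at recovery minus 1 day it was −2.75 ± 0.42 (adjusted p = 0.0236). In these tests 1 of 6 members was called, against 0.348% and 0.00711% of all genes tested (2 and 1 of 6 with animal as a block, against 3.56% and 1.22%). The effect at 5 days minus that at 1 day was −0.18 (95% confidence interval −1.05 to 0.70, adjusted p = 0.988 by limma), and that interval bounds the change. In that test 0.0142% of all genes tested were called without a block and 0.0427% with it.

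Both calls were lost without S3 or without S4. Without S3 the adjusted p of recovery minus 5 days was 0.245, and without S4 it was 0.307; with animal as a block the values were 0.0854 and 0.0998. For recovery minus 1 day the values were 0.505 without S3 and 0.281 without S4, and 0.116 and 0.063 with the block. The call for recovery minus 1 day was also lost on leaving out any of 8 single libraries (air at 1 day of S1, S2 or S3, smoke at 1 day of S2, air at recovery of S3 or S4, or smoke at recovery of S3 or S4), with an adjusted p of up to 0.0955. S3 and S4 were the animals with lower CYP1B1 in smoke than in air after recovery.

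The level of CYP1B1 also changed with time in air alone, and by as much as it did with smoke. Air cultures at 5 days, with 31.0 to 65.1, lay below air cultures at 1 day, with 173 to 308 (log2 −2.45 ± 0.30, adjusted p = 0.000247 by limma). Air cultures after recovery, with 322 to 465, lay above those at 5 days (log2 3.19 ± 0.30, adjusted p = 4.31e-06), in which 1 of 6 members was called, against 11.3% of all genes tested. They also lay above those at 1 day without overlap, as groups did for 16.2% of all genes tested in either direction, and that difference of 0.74 did not pass (adjusted p = 0.222, and 0.115 with the block), except in the fit of those 8 libraries with the block (adjusted p = 0.00741, 26.2% of all genes called). Smoke cultures at 5 days lay below smoke cultures at 1 day (log2 −2.63 ± 0.30, adjusted p = 7.00e-05), and the level under smoke at 5 days, 148 to 334, overlapped that in air at 1 day. Smoke cultures at recovery against 5 days were at log2 0.62 ± 0.30 (adjusted p = 0.449 by limma, and 0.222 with the block). They were higher in 2 animals and lower in 2. In the order of means, smoke at 1 day stood apart at the top and air at 5 days stood apart at the bottom, with no overlap to their neighbours, while smoke at recovery (421), air at recovery (384), smoke at 5 days (274) and air at 1 day (233) overlapped pairwise in that order. The call for air at 5 days against 1 day was lost in fits of those 8 libraries alone (adjusted p = 0.0755 without and 0.125 with the block).

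CYP1A1 (ENSMMUG00000022481), the classical AHR target, encodes the closest relative of the CYP1A2 enzyme and acts on many of the same compounds as CYP1B1. In smoke cultures after 1 day it had 60.6, 3.21, 11.8 and 2.23 normalized counts in S1 to S4, about 49, 3, 14 and 2 reads, against 1.72, 0.926, 0.781 and 0 in air cultures, at most about 2 reads. In smoke cultures after 5 days it had 7.86, 2.99, 2.87 and 3.15, against 0, 1.05, 0 and 0 in air cultures. The groups did not overlap at either time, and S1 had the highest smoke value at both.

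By the exact permutation test of 4 against 4 libraries on log2(value + 1), two-sided, CYP1A1 was higher in smoke at 1 day and at 5 days (p = 0.0286 each, the smallest the design allows, adjusted p = 0.0429 each over the 3 times, higher in 4 of 4 animals). By limma with no filter on low values, which tested 21628 genes, CYP1A1 did not pass at 1 day (log2 2.54 ± 0.73, adjusted p = 1.00) or at 5 days (log2 2.03 ± 0.73, adjusted p = 0.496). Exact sign flips by animal, which keep the pairing, can give no p under 0.125 and gave 0.125 at both. After recovery it had 6.39, 0, 0.943 and 0 in smoke cultures, against 1.09, 0, 0 and 1.86 in air cultures (exact permutation p = 0.886). Without any 1 animal the adjusted p of the permutation test at 1 day and 5 days was 0.15, and 3 against 3 libraries cannot give a p under 0.05. Of the other genes of the family, CYP1A2 was listed at 0 in all 24 libraries and CYP1D1 reached at most 4.79.

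TIPARP (ENSMMUG00000000366) encodes a mono-ADP-ribosyltransferase that modifies AHR and lowers its activity. After 1 day it had 905, 2042, 1291 and 1066 normalized counts in smoke cultures, against 835, 1257, 1111 and 955 in air cultures. All 4 animals were higher in smoke, S2 by 0.70 on the log2 scale and the others by 0.12 to 0.22, and the groups overlapped. The log2 fold change was 0.30 ± 0.31 (SE, adjusted p = 1.00 by limma), and it passed in the fit of these 8 libraries with animal as a block (adjusted p = 0.0306). All 4 animals were higher in smoke for 16.2% of all genes tested at this time.

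At 5 days TIPARP had 967, 1783, 1273 and 1181 normalized counts in smoke cultures, against 445, 1786, 1576 and 1128 in air cultures. The groups overlapped, and the low 445 came from the odd S1 library. Without that library and with the block, the log2 difference was −0.11, against 0.22 with it. After recovery the gene had 1417, 1830, 1767 and 1578 in smoke cultures, against 1455, 1958, 1774 and 1603 in air cultures, lower by 0.01 to 0.10 on the log2 scale in each animal (log2 −0.04, 95% confidence interval −0.69 to 0.61 without the block and −0.45 to 0.37 with it). Of all genes tested, 19.4% were lower in 4 of 4 animals at this time.

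ALDH3A1 (ENSMMUG00000001328) encodes an aldehyde dehydrogenase that detoxifies reactive aldehydes, and the cultures held much of its RNA, 0.0662 to 0.667% of all normalized counts. After 1 day it had 81249, 21025, 51294 and 38823 normalized counts in smoke cultures, against 58186, 18046, 38134 and 30923 in air cultures. Each animal was higher in smoke, by 1.17-fold to 1.40-fold, while the animals differed from each other by up to 3.86-fold within smoke, so that the groups overlapped. Higher values in 4 of 4 animals were found for 16.2% of all genes tested at 1 day.

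After recovery ALDH3A1 had 23818, 12769, 25500 and 25429 normalized counts in smoke cultures, against 17698, 8834, 19306 and 19569 in air cultures. Each animal was again higher in smoke, by 1.30-fold to 1.45-fold, and S2 was lowest in both groups. Higher values in 4 of 4 animals were found for 18.9% of all genes tested at this time. The log2 fold changes were 0.36 ± 0.52 at 1 day (adjusted p = 1.00) and 0.43 ± 0.52 at recovery (adjusted p = 0.943), and with animal as a block in the fit of all libraries they did not pass either (adjusted p = 1.00 and 0.359). In limma fits of the 8 libraries of each time alone with animal as a block, they passed at 1 day (0.36 ± 0.04, adjusted p = 0.000280) and at recovery (0.43 ± 0.06, adjusted p = 0.000727). In that recovery fit 18.8% of all genes tested were called.

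After 5 days ALDH3A1 had 76055, 25096, 78782 and 43488 normalized counts in smoke cultures, against 101418, 14556, 38749 and 28618 in air cultures. Smoke was higher by 0.60 to 1.02 on the log2 scale in S2, S3 and S4 and lower in S1, where the air library was the odd one. With that library in, the log2 fold change was 0.50 ± 0.52 (adjusted p = 0.780, and 0.269 with the block). Without it and with the block it was 0.82 and passed (adjusted p = 0.00800). The changes of the smoke effect between the times lay between −0.06 and 0.13 on the log2 scale, with adjusted p of 0.989 or more. Without the odd S1 library and with the block, they were 0.46 at 5 days minus 1 day (adjusted p = 0.505) and −0.39 at recovery minus 5 days (adjusted p = 0.309).

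CYP2S1 (ENSMMUG00000009608) encodes a cytochrome P450 of epithelial tissues that is induced through AHR in human cells, and it was lower in smoke than in air after recovery. It had 198, 48.1, 68.8 and 95.3 normalized counts in smoke cultures, against 256, 84.4, 169 and 206 in air cultures. Every animal was lower in smoke, S1 to 0.774 of its air level and S3 to 0.410 of it, and the groups overlapped. Lower values in 4 of 4 animals were found for 19.4% of all genes tested at this time. The log2 fold change was −0.89 ± 0.55 (SE, adjusted p = 0.756 by limma without a block), and −0.89 ± 0.17 with animal as a block, where it passed (adjusted p = 0.00791). In the same cultures the basal markers KRT5 and ITGB4 fell with smoke (log2 −1.22, adjusted p = 0.0173, and −1.04, adjusted p = 0.00912), and basal sums were lower in smoke in all 4 animals. The basal marker NGFR passed with the block alone (log2 −1.08, adjusted p = 0.00208 by limma), and TP63 passed in neither fit (log2 −0.50). The basal markers DLK2 and COL17A1, which also enter the basal sums, are not given here one by one. No secretory marker passed in either fit. BPIFB1, SCGB1A1 and SCGB3A1 were at log2 0.37, 0.33 and 0.21, and BPIFA1 and MUC5B at −0.06 and −0.45. The part of cell composition in the CYP2S1 difference was not tested.

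After 1 day CYP2S1 had 329, 76.0, 115 and 147 normalized counts in smoke cultures, against 353, 82.4, 148 and 156 in air cultures, lower in 4 of 4 animals by 0.08 to 0.36 on the log2 scale. At this time 15.2% of all genes tested were lower in 4 of 4 animals. After 5 days it had 231, 63.8, 105 and 118 in smoke cultures, against 354, 92.4, 88.9 and 110 in air cultures, lower in S1 and S2 and higher in S3 and S4. Groups overlapped at both times, and neither difference passed with or without the block. The change of the smoke effect at recovery against 1 day was −0.73 (adjusted p = 1.00 by limma, and 0.192 with the block), and against 5 days it was −0.69 (adjusted p = 0.786, and 0.119 with the block). With the odd S1 library left out and animal as a block, both passed, at log2 −0.73 (adjusted p = 0.0421) and −0.82 (adjusted p = 0.0255), in fits that called 9.2% and 11.3% of all genes tested. The change against 1 day also passed in the fit of its own 16 libraries with the block (adjusted p = 0.0394, 8.26% of all genes called).

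In the fit of all libraries without a block, CYP1B1 was the only one of the 6 tested genes that passed between times, and more passed with animal as a block. In air at 5 days against 1 day, 1 of 6 was called without a block and 3 of 6 with it, against 3.98% and 19.4% of all genes tested. In air at recovery against 5 days the counts were 1 and 4 of 6, against 11.3% and 28.4%, and at recovery against 1 day 0 and 2 of 6, against 2.19% and 13%, with 3 of 6 at an unadjusted p under 0.05 by limma in either fit. In smoke cultures 1 and 1 of 6 were called at 5 days against 1 day (0.284% and 3.48% of all genes), 0 and 1 of 6 at recovery against 5 days (0.512% and 8.06%; 2 and 3 of 6 at an unadjusted p under 0.05), and 1 and 4 of 6 at recovery against 1 day (6.2% and 21%).

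ALDH3A1 had its lowest levels after recovery, in both exposures. It was lower at recovery, with 8834 to 19569 normalized counts in air, than at 5 days, with 14556 to 101418, and than at 1 day, with 18046 to 58186, in each animal. In air 19.7% and 22% of all genes tested were lower in 4 of 4 animals in these comparisons. The log2 changes in air were −1.20 against 5 days (adjusted p = 0.127, and 0.00152 with animal as a block) and −1.10 against 1 day (adjusted p = 0.324, and 0.00423 with the block). In the fit of the 8 air libraries of recovery and 5 days with the block the first was lost (adjusted p = 0.172), and 0.0284% of all genes were called. In smoke cultures they were −1.26 (adjusted p = 0.334, and 0.00287 with the block) and −1.03 (adjusted p = 0.274, and 0.00429 with the block).

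With animal as a block, the receptor was lower and its repressor higher at 5 days than at 1 day in air. AHR at 5 days had 910 to 2021 normalized counts, against 2341 to 2478 at 1 day, with no overlap (log2 −0.62, adjusted p = 0.0688, and 0.0330 with the block). AHRR at 5 days had 988 to 1430, against 740 to 926 at 1 day, also with no overlap (log2 0.52, adjusted p = 0.0558, and 0.000199 with the block). Groups did not overlap for 12.6% of all genes tested in this comparison. The AHR call was lost without the odd S1 library (log2 −0.31, adjusted p = 0.0588 with the block), while that of AHRR held without it (adjusted p = 0.0404 without and 1.70e-05 with the block). In the fit that left it out and had the block, 18.6% of all genes tested were called. AHRR then was lower in air at recovery than at 5 days (log2 −0.40, adjusted p = 0.0881, and 0.000754 with the block). In fits of the 8 libraries of each comparison alone with the block, all 3 calls were lost. There AHR and AHRR at 5 days against 1 day had adjusted p of 0.279 and 0.199, in a fit in which limma called 0% of all genes (2375 genes at an unadjusted p under 0.05), and AHRR at recovery against 5 days had 0.210.

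In smoke cultures AHRR was higher at recovery than at 1 day (log2 0.27, adjusted p = 0.340, and 0.0112 with the block), and AHR was at log2 −0.41 at 5 days against 1 day, which passed with the block once the odd S1 library was left out (adjusted p = 0.00881, 18.9% of all genes tested called). TIPARP in air was higher at recovery, with 1455 to 1958 normalized counts, than at 1 day, with 835 to 1257, and the groups did not overlap (log2 0.72, adjusted p = 0.28, and 0.0207 with the block). Against 5 days its log2 change was 0.63 (adjusted p = 0.185, and 0.0242 with the block), and that call was lost in the fit of those 8 libraries with the block (adjusted p = 0.275). At 5 days against 1 day its log2 change in air was 0.09, and 0.41 with the odd S1 library left out and the block, where it passed (adjusted p = 0.00938). In that fit further members passed in smoke cultures. AHRR was higher at 5 days than at 1 day (log2 0.24, adjusted p = 0.00895), AHR was higher at recovery than at 5 days (log2 0.41, adjusted p = 0.00563), and TIPARP was higher at recovery than at 5 days (log2 0.37, adjusted p = 0.00719) and than at 1 day (log2 0.38, adjusted p = 0.00369). The fit called 27.3% of all genes tested at recovery against 5 days and 40.7% against 1 day. CYP2S1 in smoke cultures was lower at recovery than at 1 day in 4 of 4 animals (log2 −0.68, adjusted p = 0.540, and 0.00853 with the block), and in air that change was 0.04. In smoke cultures 22.1% of all genes tested were lower in 4 of 4 animals in that comparison.

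**Figure D3:**
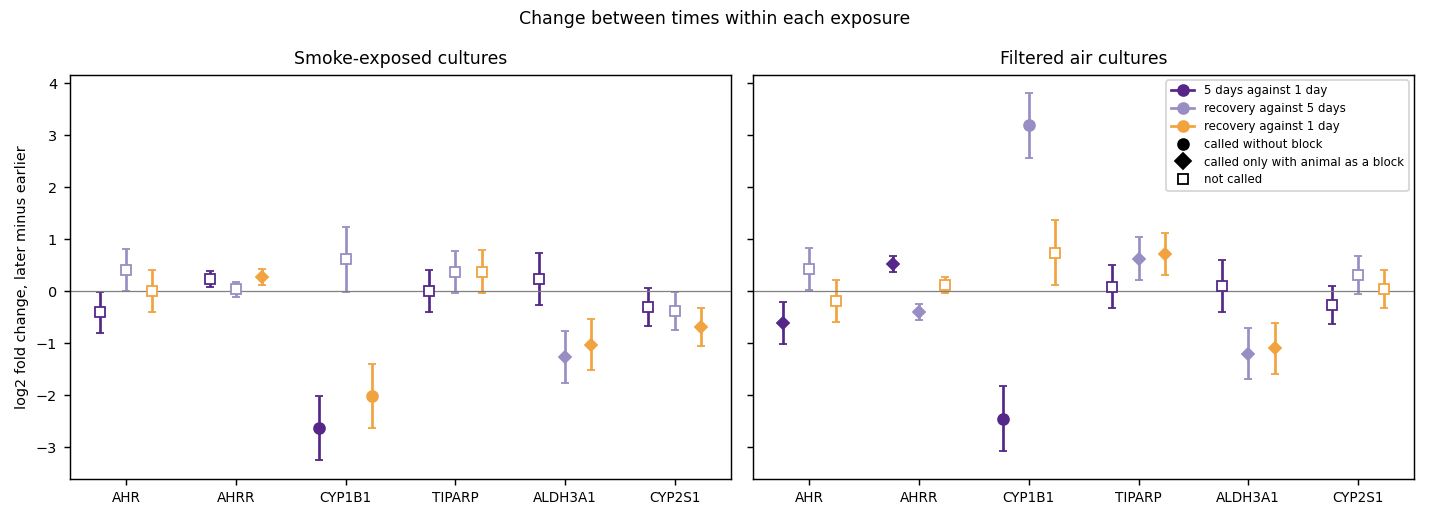
Points give the log2 fold change of the later over the earlier time in smoke cultures (left) and air cultures (right), with 95% confidence intervals from the limma fit with animal as a block; filled circles passed without the block, diamonds passed only with it, and open squares did not pass. CYP1B1 fell between 1 day and 5 days in both panels and rose at recovery in air; ALDH3A1 fell at recovery in both panels.

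Animal accounted for a larger share of the spread in the 4 genes other than AHR and the CYP1 genes. Over the 24 libraries, animal accounted for 79.0% of the sum of squares of CYP2S1 on the log2 scale, 46.7% for ALDH3A1, 46.7% for AHRR and 46.0% for TIPARP. It accounted for 0.494% for CYP1B1, 5.85% for AHR and 18.0% for CYP1A1, which rests on few reads. The group accounted for 94.3% for CYP1B1. S2 had the highest AHRR and TIPARP in 6 of 6 groups and the lowest ALDH3A1 in 6 of 6. S1 had the highest CYP2S1 and the lowest TIPARP in 6 of 6.

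The sum of secretory cell markers was ordered across the animals much as CYP2S1 was. The sum of the 5 secretory markers was highest in S1 and lowest in S2 in 6 of 6 groups, and CYP2S1 was highest in S1 in 6 of 6 and lowest in S2 in 5 of 6. The largest parts of that sum were BPIFB1, at up to 159768 normalized counts, and MUC5B, at up to 12361. SCGB1A1, BPIFA1 and SCGB3A1 reached at most 47.8, 322 and 1245. Ciliated sums were highest in S3 in 6 of 6 groups. With 4 animals, cell composition, age and animal cannot be told apart.

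**Figure D4:**
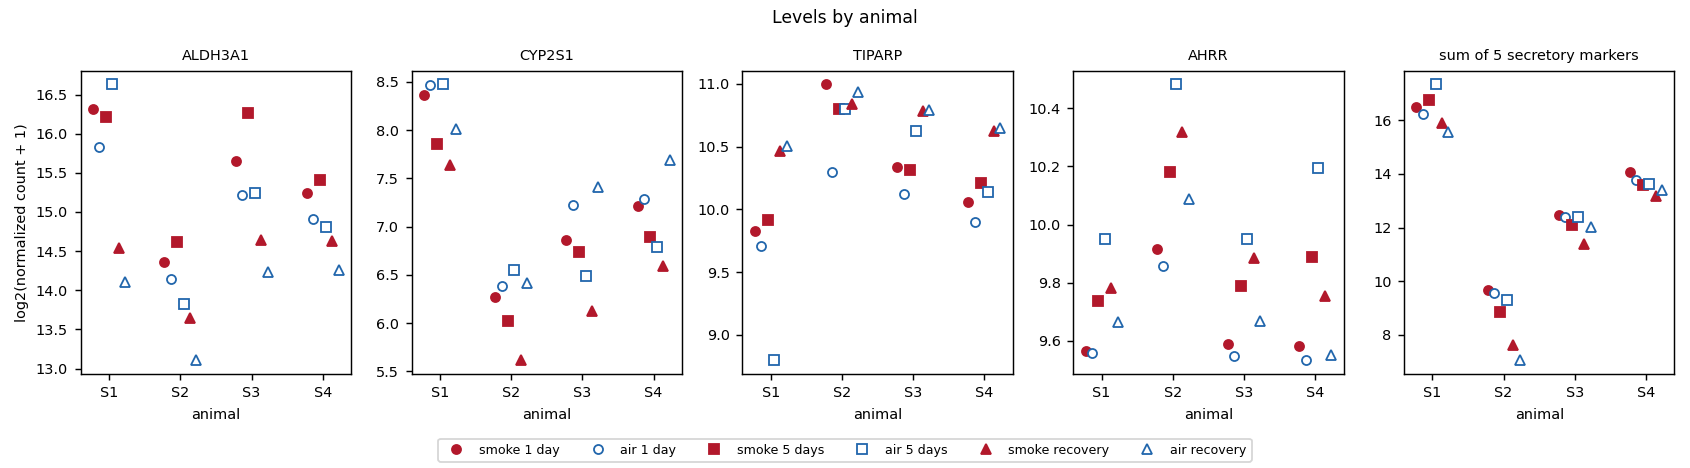
Each panel gives log2(normalized count + 1) in the 6 libraries of each animal, red filled symbols for smoke and blue open symbols for air, with the shape for the time, for 4 genes and, at the right, for the sum of 5 secretory markers. CYP2S1 and the secretory sum were highest in S1 in every group, while TIPARP and AHRR were highest in S2.

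The genes around these 7 were read from 4 lists, with the shares of all genes called in each comparison as given above. Of 12 receptor partners and coregulators listed, 11 were tested, and none passed between smoke and air at 1 day or 5 days by limma with or without the block (0 and 1 at an unadjusted p under 0.05 without it). ARNT, the nuclear partner, had log2 fold changes of −0.06, 0.29 and −0.27 at 1 day, 5 days and recovery. NRIP1, a corepressor, was lower in smoke after recovery (log2 −1.26 ± 0.31, adjusted p = 0.117, and 0.0267 with the block). It had 1238, 874, 830 and 849 normalized counts in smoke cultures, against 2295, 2729, 1921 and 2106 in air cultures. The median of the 11 was −0.11, 0.30 and −0.23 at the 3 times, beside 0.00, 0.01 and 0.01 for all genes tested.

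In air at 5 days against 1 day, 3 of the 11 fell without a block, against 3.98% of all genes tested called in either direction, and 6 of 11 passed with it, against 19.4%. The 3 were the acetyltransferase genes CREBBP (log2 −1.04 ± 0.24, adjusted p = 0.0212) and EP300 (−0.74 ± 0.20, adjusted p = 0.0442) and the coactivator gene NCOA1 (−0.54 ± 0.15, adjusted p = 0.0412). At recovery against 5 days 5 of the 11 passed without a block and 7 with it, against 11.3% and 28.4%. EP300, NCOA3 and NRIP1 rose by 0.82 to 1.37 on the log2 scale. The chaperone gene HSP90AA1 fell (−0.88 ± 0.23, adjusted p = 0.0178). The odd S1 library had the lowest CREBBP of the series, at 327. That library enters both of these comparisons and the smoke effect at 5 days, and fits of these genes without it are not given here.

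Of 11 other genes of the xenobiotic battery, 8 were tested, and none passed between smoke and air without the block (2, 2 and 1 at an unadjusted p under 0.05 at the 3 times). NQO1, a quinone reductase, had 709, 622, 698 and 712 normalized counts in smoke cultures after 1 day, against 477, 500, 543 and 615 in air cultures, with no overlap, and a log2 fold change of 0.36 ± 0.20 that did not pass. At 1 day 4.1% of all genes tested had no overlap in either direction. With the block, the glucuronosyltransferase gene UGT1A1 was higher in smoke at 5 days (log2 0.72, adjusted p = 0.331 without and 0.0349 with it) and the retinaldehyde dehydrogenase gene ALDH1A3 at recovery (log2 0.89, adjusted p = 0.676 without and 0.0370 with it). The median log2 fold change of the 8 was 0.14, 0.03 and 0.08.

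Of 20 further genes reported to respond to AHR in various cells, 18 were tested, with medians of 0.01, 0.18 and −0.25 at the 3 times. SLC7A5, an amino acid transporter gene, passed without the block. After recovery it had 506, 376, 324 and 271 normalized counts in smoke cultures, against 801, 844, 790 and 827 in air cultures, with no overlap (log2 −1.18 ± 0.22, adjusted p = 0.0187). After recovery 8.04% of all genes tested had no overlap in either direction. Its smoke effect at recovery was lower than at 5 days by −1.92 ± 0.31 (adjusted p = 0.00599), where it had been 0.74. Air cultures at recovery were above those at 5 days (log2 2.11, adjusted p = 9.43e-06), so the gene rose in air in that interval.

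ID3, a transcriptional inhibitor gene, was lower with the block at 5 days (log2 −0.78, adjusted p = 0.317 without and 0.00592 with it) and at recovery (log2 −0.56, adjusted p = 0.535 without and 0.0220 with it).

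Enzymes that make tryptophan-derived ligands of AHR were 7 in the list, of which 6 were tested. None passed between smoke and air by limma without the block (0 at an unadjusted p under 0.05 at each time), and KMO, a kynurenine hydroxylase gene, passed with it at recovery (log2 0.60, adjusted p = 0.759 without and 0.0379 with it). IDO1, which starts tryptophan breakdown, was higher at 5 days than at 1 day with the block in smoke cultures (log2 1.69, adjusted p = 0.697 without and 0.00117 with it) and in air cultures (log2 1.26, adjusted p = 0.416 without and 0.00414 with it).

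**Figure D5:**
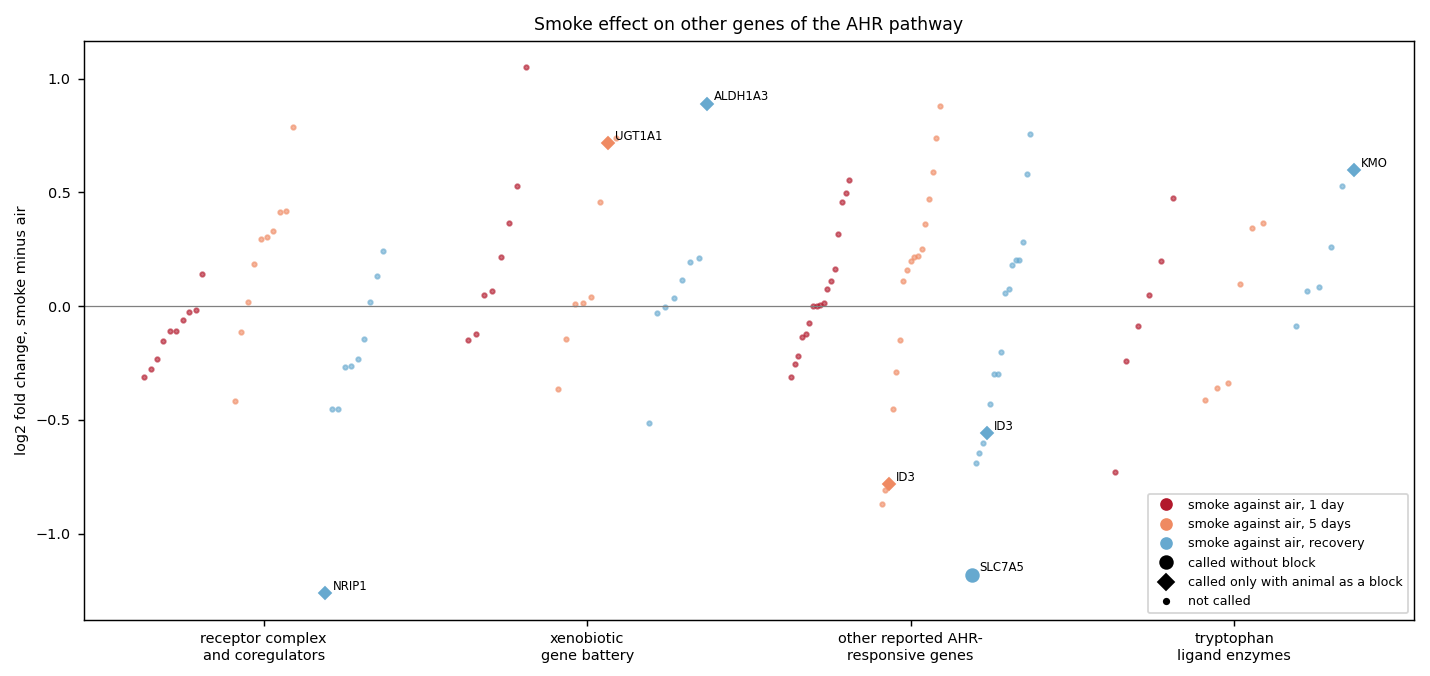
Each point is 1 gene of 4 lists around the receptor (less a pair of genes not reported here), placed by its log2 fold change of smoke over air at 1 day (red), 5 days (orange) and recovery (blue); the large circle passed without the block, diamonds passed only with animal as a block, and small points did not pass. SLC7A5 and NRIP1 lie below −1, both at recovery.

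Pairs of the 6 tested genes were compared over the 24 libraries, which share animals and groups. The pair most alike was ALDH3A1 and CYP2S1 (Pearson r = 0.56, 24 libraries), and the least alike was TIPARP and ALDH3A1 (r = −0.78). CYP1B1 had r = 0.33 with AHR and −0.43 with AHRR. Among all genes with a symbol, those most like CYP1B1 were SRSF2 (r = 0.80), RIPOR2 (0.79) and PIP4K2C (0.78), a lower Pearson r than the leading genes of any other member. AHR was most like CDK6 (0.92), HECW2 (0.90) and IQGAP1 (0.90), and AHRR was most like C1H1orf43 (0.90), RNASE4 (0.88) and SMS (0.88). By Spearman rho the leading genes of AHR were at 0.75, 0.68 and 0.76 and those of CYP1B1 at 0.73, 0.71 and 0.69, so the ranking of CYP1B1 did not hold by rank. TIPARP was most like ASPH (0.93), RAB18 (0.93) and EZR (0.92), and ALDH3A1 was most like PDIA5 (0.93), NUCB2 (0.92) and GJB1 (0.92). CYP2S1 was most like FAIM2 (0.88), the secretory marker BPIFB1 (0.88), which enters the secretory sum above, and NOS2 (0.87).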

How the data were processed

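RNA of 24 cultures was sequenced after poly-A selection, per the labels' protocols. FastQC, Trim Galore, Bowtie2 and RSEM are named per the submitters' processing notes; their versions, the build, the annotation and the strand setting are not given in the sources, and no positions are printed. The deposited table is named as raw counts but holds a non-whole normalized signal per gene and library, which fits division by a library size factor; the authors' normalization is not stated. Count tests, planned only for whole counts, were therefore not used, and counting error cannot be computed; precision is the spread between animals. Depth was approximated as each library's sum divided by the value of 1 read.

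Values were analysed as log2(value + 1), so fold changes of low genes are understated. Genes with at least 10 in at least 4 of 24 libraries were tested, 14062 in all, with limma 3.58.1 in R 4.3.3 (trend), 6 group means, 12 comparisons, two-sided, Benjamini-Hochberg over all genes tested, called at an adjusted p under 0.05; the method was tested on simulated data. CYP1A1, under the filter, had an exact permutation test on 70 assignments. Labels pair the libraries by animal, and so did the data. Over all genes tested, 60 same-animal pairs had correlated departures from their group means (r from 0.303 to 0.804, median 0.612). Another 180 pairs, of different animals in different groups, had r from −0.443 to 0.0149 (median −0.189). Departures cancel within each group, which forces negative values between animals, so the 180 pairs are no independent contrast. Nothing says whether libraries of an animal came from separate cultures, so p-values measure the spread between these samples.

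The members, the lists around them and the tests were chosen with earlier results of these data known. All 7 members were named; of each list, genes past the threshold in either fit, or else up to 3 with the smallest p, were eligible, and of these the text names those between smoke and air and examples over time; per member, the 3 genes with the highest Pearson r. Genes of the lists with no match or under the filter are not analysed here; a pair of list genes that enter the lists' counts and medians is not reported here by name. Alternatives were animal as a block, only the libraries of a comparison, equal library totals, no filter, a stricter filter (mean of at least 50), a pseudocount of 0.5 or 10, and leaving out each animal or library.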

Additional observations from a re-analysis of the deposited data

Results flagged for a closer look

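In 8 of 42 groups of 4 libraries, 1 library lay far from the other 3 by the gap to the nearest as a share of the range (Dixon's 95% critical value). Chance would give about 1 in 20 groups if they were independent. The groups share 4 animals, so 8 of 42 cannot be read against that share. S2 was the library set apart in 6 of the 8. CYP1B1 was low in smoke at 5 days in S2 (147.5 normalized counts). AHRR was high in S2 at 1 day, in smoke (964) and in air (926), and ALDH3A1 was low in S2 at recovery, in smoke (12769) and in air (8834). CYP1A1 was at 7.86 in S1 in smoke at 5 days, and at 1.05 (about 1 read) in S2 in air at 5 days, where the other 3 libraries were at 0. CYP2S1 was high in S1 in air at 5 days (354), in the library that stood apart from all others.

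Differences between times in the smoke effect passed for CYP1B1 at recovery against 5 days (log2 −2.57) and against 1 day (log2 −2.75). For AHRR the change at recovery against 5 days passed with animal as a block (log2 0.44). These are tests of the difference itself.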

How the results depend on the processing

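Counts of the 6 tested members called that moved by over 1.5 times were as follows. The shares of all genes called moved with the fit as well, and those with animal as a block are given above. With animal as a block (the pairing) they were 1 for smoke against air at recovery, 2 for the change of the effect at recovery minus 5 days, 3, 4 and 2 for air at 5 days against 1 day, recovery against 5 days and recovery against 1 day, and 1 and 4 for smoke cultures at recovery against 5 days and against 1 day. With only the libraries of a comparison they were 0 for smoke against air at 5 days, 0 for the change at recovery minus 5 days, and 0 and 1 for air at 5 days and at recovery against 1 day. With both they were 4, 0 and 2 for smoke against air at the 3 times, 2 for the change at recovery minus 1 day, 0 and 4 for air at 5 days and at recovery against 1 day, and 3, 3 and 4 for smoke cultures at 5 days against 1 day, recovery against 5 days and recovery against 1 day. Those fits called 9.11% and 18.8% of all genes for smoke against air at 1 day and recovery, 8.26% for that change, and 0% and 26.2% for air. In those 3 fits of smoke cultures 32%, 31.7% and 39.6% of all genes had an unadjusted p under 0.05 by limma. Equal library totals and the stricter filter gave 2 for air at 5 days against 1 day. Leaving out 1 animal or library, with or without the block, gave 1 to 3 for smoke against air at 5 days, 0 to 3 at recovery, 0 to 3 and 0 to 2 for the changes at recovery against 5 days and 1 day, 1 to 3, 1 to 4 and 0 to 2 in air, and 1 to 3, 0 to 3 and 1 to 5 in smoke cultures. Signs turned under equal totals for AHRR at 1 day (log2 −0.043) and AHR at 5 days (0.051), neither called. They also turned on leaving out an animal or library, at 1 day for AHRR (−0.045 to 0.12) and CYP2S1 (−0.56 to 0.21), at 5 days for TIPARP (−0.21 to 0.46), CYP2S1 (−0.53 to 0.27) and AHR (−0.38 to 0.18), at recovery for TIPARP (−0.11 to 0.031), AHR (−0.10 to 0.017), CYP1B1 (−0.14 to 0.23) and CYP1A1 (−0.19 to 0.93), and for the change of CYP1B1 at 5 days minus 1 day (−0.66 to 0.54). The cause was not tested. Equal totals moved the median log2 change of all genes by −0.15 for air at 5 days against 1 day and by 0.16 for the change at 5 days minus 1 day, and by less in the other 10 comparisons. CYP1A1 rests on few reads in most libraries, which limits its values.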
